A study of Saccharomyces cerevisiae with 6 samples.

Results

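The proteins of the large (60S) subunit of the cytosolic ribosome were followed through their transcripts in budding yeast (*Saccharomyces cerevisiae*). The members were the genes whose only symbol in the array's annotation started with RPL and a digit, together with the stalk protein genes RPP0, RPP1A, RPP1B, RPP2A and RPP2B. These were 47 of 5656 genes named by a probe set of their own, and they were read from 58 probe sets, groups of short probes against a transcript. Genes of the mitochondrial ribosome and probe sets naming several genes were left out. A further 32 genes of this kind were named only on shared probe sets.

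Total RNA of 2 isogenic strains, the wild type Y255 and the CBC2 deletion (cbc2Δ) strain Y2685, was hybridised to Affymetrix Yeast Genome S98 arrays, 3 per strain and 6 in all. Per the labels, both strains grew in synthetic complete (SC) medium at 30 °C to log phase (OD600 of 1.0), with no other treatment, and other alleles of the strains are not named there. No label states that the 3 samples of a strain came from separate cultures, so a p-value here covers only the scatter of these samples, which may be technical. In RNA from a whole culture, more transcript per cell and more cells with the transcript cannot be told apart.

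The large subunit joins amino acids at its catalytic centre, threads the growing chain through an exit tunnel and recruits elongation factors through a flexible stalk of acidic P proteins. Most of its proteins in budding yeast are encoded by paralogous genes, an A and a B copy left by an ancient genome duplication, and the set is transcribed together under Rap1, Fhl1, Ifh1 and Sfp1. The product of CBC2 is the smaller partner in the nuclear cap-binding complex, which binds the cap of new messenger RNA and promotes its splicing, and many ribosomal protein genes carry an intron. The comparison asks how the transcripts of the large subunit differ when this subunit of the complex is missing.

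The labels were first checked on CBC2 itself (YPL178W). Its normalised intensity was 882, 840.3 and 763 in the wild type, and each deletion array had it at the floor, 8.35, at least 99.0-fold lower (limma adjusted p = 1.19e-08). Intensities are quantile normalised, with values under the 10th percentile raised to that floor, and a log2 fold change is the deletion mean minus the wild-type mean, given with its standard error (SE). A gene was called at a limma adjusted p under 0.05 over all 6956 tested probe sets, and 31.4% of these were called in either direction. Arrays of the same strain correlated at 0.980 to 0.988, and arrays of different strains at 0.951 to 0.969. Wild-type replicates 1 and 2 were washed on fluidics station 1 and the other 4 arrays on station 2, and deletion replicate 2 was scanned on another day. Values with the station as a block are given below.

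Transcripts of the large subunit were mostly higher in the deletion strain. Of the 47 genes, all of which passed the filter on dim probe sets, 32 rose, none fell and 15 were not called. Of all 5247 tested genes, 16.3% were called higher and 16.3% lower. The median log2 fold change of the 47 genes was 0.67, with a range from -0.45 to 1.57, against 0.00 over all tested genes. At least a 2-fold rise was called for 9 of them, against 5.36% of all tested genes. All deletion arrays were above all wild-type arrays for 35 of the 47 genes and for 24.0% of all tested genes, and 1 gene, RPL15B, was lower on every deletion array. At an unadjusted p under 0.05 (limma), 36 of the 47 genes were higher and 1 was lower, against 1163 and 1189 of all 5247 tested genes. The point estimate was above 0 for 45 genes, the exceptions being RPL15B and RPL22B.

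**Figure D1:**
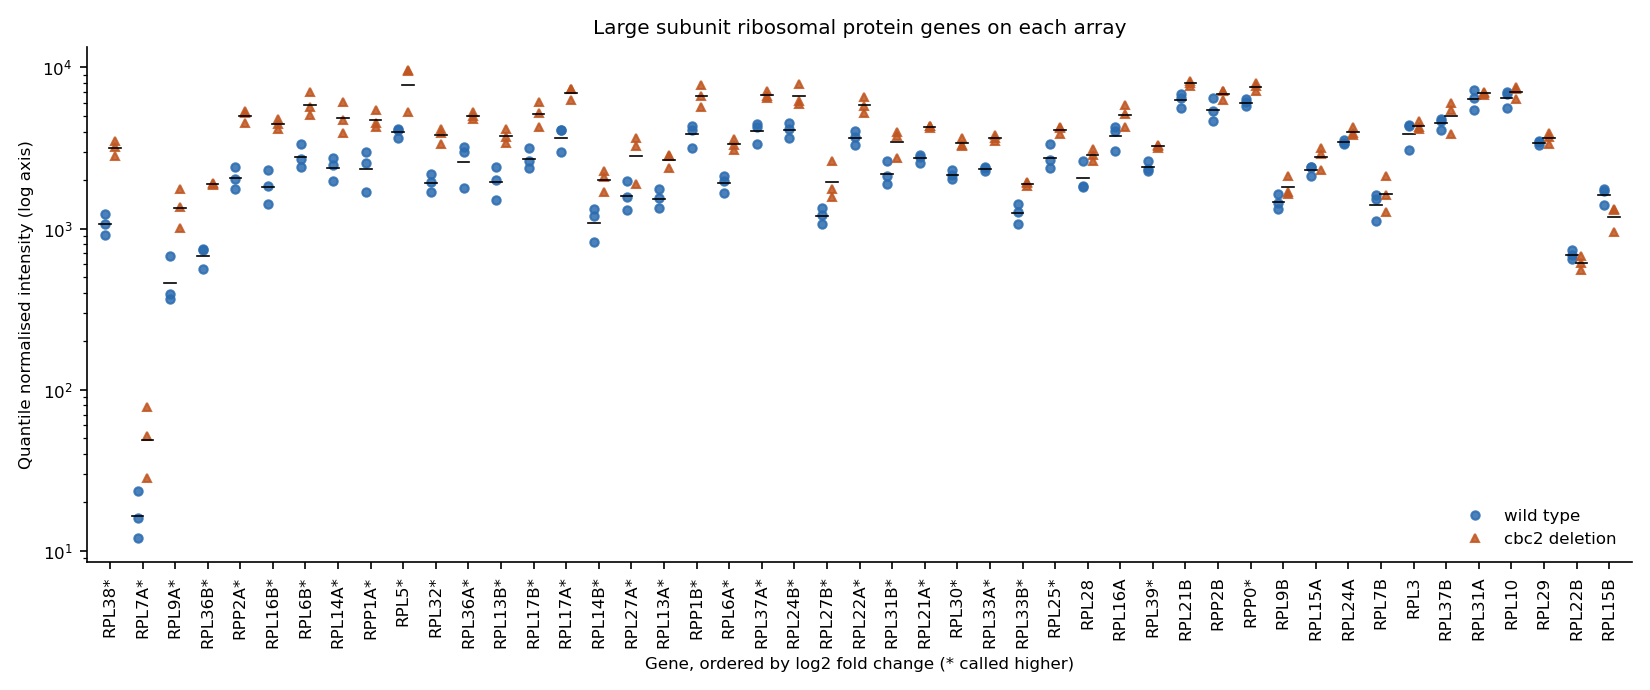
Quantile normalised intensity (log axis) of each of the 47 large subunit genes on the 3 wild-type arrays (circles) and the 3 deletion arrays (triangles), with the geometric mean of each strain as a bar and genes in order of log2 fold change. For 35 genes every triangle lies above every circle, and asterisks mark the 32 genes called higher.

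**Figure D2:**
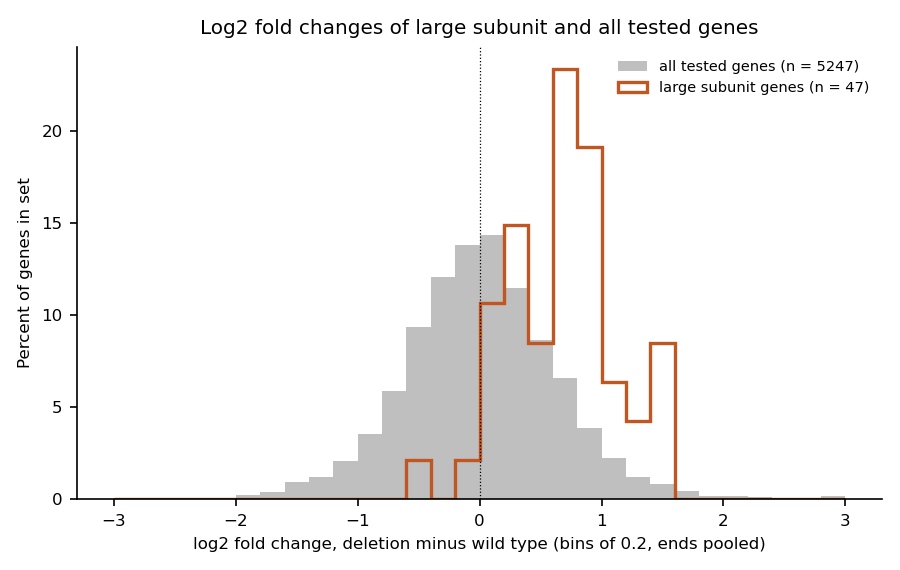
Percent of genes in bins of log2 fold change (deletion minus wild type) for all 5247 tested genes (grey) and the 47 large subunit genes (line), with the end bins pooled. The grey distribution is centred on 0.00, and the line has its median at 0.67.

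The scale of the arrays changed how many genes were called, not the direction. The trimmed mean of the deposited intensities differed up to 1.88-fold between arrays. On the deposited scale 16 of the 47 genes were called higher and none lower, against 2.29% of all tested genes called higher. The median log2 fold change there was 0.69 for the large subunit and -0.25 for all tested genes. With every array scaled to one median, 42 were called higher, against 19.6% of all tested genes, with medians of 1.02 and 0.07. In both cases 45 of 47 point estimates were above 0. Both strains were present only on station 2, with a single wild-type array (replicate 3). With the fluidics station as a block, 9 genes were called higher and 0 lower, against 4.97% of all tested genes called higher, and the median was 0.61.

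On the normalised scale the median of the 47 genes separated the strains on every array. Relative to each gene's own mean over the 6 arrays, the median of the 47 genes was -0.28, -0.43 and -0.22 in the wild type and 0.31, 0.31 and 0.34 in the deletion (log2, normalised). Wild-type replicate 2 was the lowest wild-type array for 32 of the 47 genes. On the deposited scale the same medians were -0.30, -0.17 and -0.59 in the wild type and 0.61, 0.39 and -0.05 in the deletion, where replicate 3 had the lowest overall brightness of the 6 arrays. Among the 4 arrays of station 2, all 3 deletion arrays were above wild-type replicate 3 for 38 of the 47 genes (80.9%), and for 36.2% of all tested genes.

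**Figure D3:**
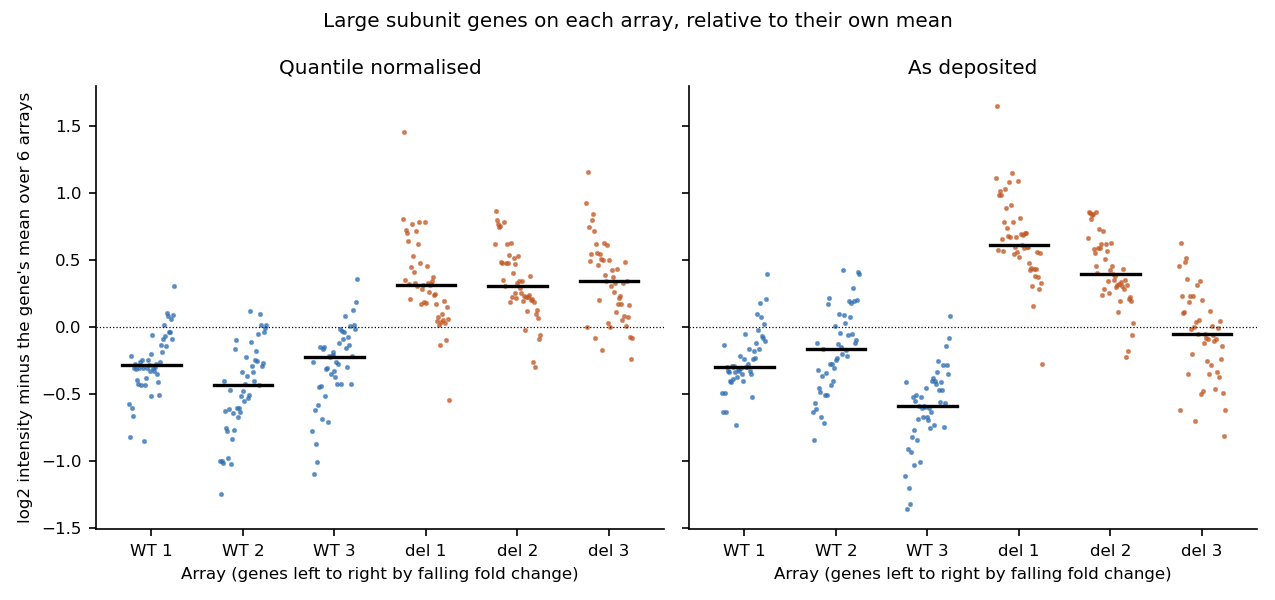
Log2 intensity of the 47 large subunit genes on each array minus each gene's mean over the 6 arrays, with normalised values on the left and deposited values on the right (points are genes, bars are medians, genes run left to right by falling fold change). The 3 deletion medians lie at 0.31 to 0.34 after normalisation, and deletion replicate 3 lies at -0.05 on the deposited scale.

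The largest rise was that of RPL38 (YLR325C), which encodes a small protein found in ribosomes of eukaryotes and not of bacteria. Its intensity was 1228, 913 and 1068 in the wild type and 3187, 2807 and 3473 in the deletion. Every deletion array was above every wild-type array, and the means were 1069 ± 158 and 3156 ± 334 (SD, n = 3 each; log2 fold change 1.57, SE 0.16, limma adjusted p = 0.000229). RPL38 was called on the deposited scale as well (log2 fold change 1.49, adjusted p = 0.00106).

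RPL36B (YPL249C-A) read 742, 558 and 733 in the wild type and 1856, 1914 and 1886 in the deletion strain. The deletion arrays lay within a narrow band, well above the highest wild-type array (log2 fold change 1.49, SE 0.16, adjusted p = 0.000268, limma). RPL9A (YGL147C), which encodes a protein of the face near the base of the stalk, read 677, 393 and 368 in the wild type and 1005, 1369.5 and 1751 in the deletion (log2 fold change 1.54, SE 0.27, limma adjusted p = 0.00261). Its arrays varied more within each strain than those of RPL36B. RPL16B (YNL069C) read 2295, 1837 and 1417 in the wild type and 4428, 4780.1 and 4136 in the deletion (log2 fold change 1.29, SE 0.18, limma adjusted p = 0.00081). For none of these 3 genes did the strains overlap. RPL36B and RPL9A were read from probe sets that may also take signal from the other copy.

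RPL7A (YGL076C) needs to be read apart. Its only probe set without a suffix was dim, at 15.98, 11.9 and 23.6 in the wild type and 77.5, 51.5 and 28.3 in the deletion, close to the floor of 8.35. The fitted log2 fold change was 1.55 (SE 0.40, limma adjusted p = 0.0157), and the call was lost on the deposited scale (1.26, adjusted p = 0.0515), with the station block and without the filter on dim probe sets. The other probe sets naming RPL7A alone carry a suffix, which Affymetrix gives to sets that could not be designed as full sets of unique probes. They rose by 0.74 (adjusted p = 0.00582) and 1.34 (adjusted p = 0.0193) on the log2 scale, so the direction was shared by the 3 sets and the size was not.

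Of the P stalk, 4 of the 5 measured genes rose, with a median log2 fold change of 0.80, against 16.3% of all tested genes called higher. RPP2A (YOL039W), an acidic P2 protein, read 2031, 2427 and 1755 in the wild type and 5211, 5379 and 4522 in the deletion, with no overlap (log2 fold change 1.29, SE 0.15, limma adjusted p = 0.000372). The P1 protein genes RPP1A and RPP1B rose by 1.01 and 0.80 on the log2 scale (adjusted p = 0.00551 and 0.00541). RPP0 (YLR340W), the base of the stalk on which the P1 and P2 proteins sit, read 6385, 5723 and 6082 in the wild type and 7160.1, 8035 and 7667 in the deletion. The strains did not overlap, but the change was small (log2 fold change 0.33, SE 0.11, limma adjusted p = 0.0454), and the call was lost in 12 of 19 other settings, every one that left out an array included. RPP2B read 5379, 4628 and 6465 in the wild type and 6300.1, 7119.7 and 7189 in the deletion, overlapping between the strains, and was not called (log2 fold change 0.33, 95% confidence interval 0.02 to 0.65, adjusted p = 0.0977).

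RPL5 (YPL131W), which carries the 5S ribosomal RNA into the subunit, rose on all deletion arrays but unevenly. It read 4154, 3647 and 4115 in the wild type and 9478, 9584 and 5267 in the deletion (log2 fold change 0.98, SE 0.21, limma adjusted p = 0.00747). Deletion replicate 3 stood well below the other deletion arrays and above every wild-type array. Its call was lost with the station block and without the filter on dim probe sets, and it was kept whichever array was left out.

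Along the exit tunnel and its rim, 5 of 6 genes with a probe set of their own rose, with a median of 0.62. Of all tested genes, 16.3% were called higher. The pairs of this class read only on shared probe sets are given under the other observations. RPL17A and RPL17B, whose protein lines the tunnel, rose by 0.93 each (adjusted p = 0.00199 and 0.00283). RPL25 (YOL127W), at the mouth of the tunnel where factors that meet the nascent chain dock, read 2644, 2367 and 3331 in the wild type and 4268, 3848 and 4231 in the deletion (log2 fold change 0.58, SE 0.15, limma adjusted p = 0.0165). Its strains did not overlap, and the call was lost in 5 of 19 other settings, without wild-type replicate 2 and without deletion replicate 1 among them. RPL31B rose by 0.66 (adjusted p = 0.0213) and RPL39, which also lines the tunnel, by 0.43 (adjusted p = 0.0267), and these calls were lost in 8 and 9 of 19 other settings. Without wild-type replicate 2, deletion replicate 1 or deletion replicate 2, neither RPL31B nor RPL39 was called, and RPL31B was also lost without wild-type replicate 3 and RPL39 without wild-type replicate 1.

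None of the 3 measured genes of the catalytic centre and its neighbourhood was called, and their median was 0.16. At an unadjusted p under 0.05 (limma), 1 was higher, against 1163 of all 5247 tested genes. With every array scaled to one median all 3 were called higher, with a median of 0.58, against 19.6% of all tested genes called higher. RPL3 (YOR063W), which reaches into the peptidyl transferase centre, read 4332, 4381 and 3053 in the wild type and 4242, 4651 and 4126 in the deletion. The strains overlapped, and only wild-type replicate 3 was clearly lower than the rest (log2 fold change 0.16, 95% confidence interval -0.19 to 0.52, limma adjusted p = 0.465). RPL10 (YLR075W), among the last proteins to join the subunit, read 7052, 5614 and 6853 in the wild type and 6342, 7378 and 7568 in the deletion, again overlapping (log2 fold change 0.13, 95% confidence interval -0.16 to 0.42, limma adjusted p = 0.49). RPL28 (YGL103W), in which mutations give cycloheximide resistance, read 1824, 2626 and 1805 in the wild type and 3126, 2841 and 2609 in the deletion. Wild-type replicate 2 reached into the range of the deletion arrays (log2 fold change 0.47, 95% confidence interval 0.09 to 0.86, limma adjusted p = 0.0592). RPL2A and RPL2B, also of this class, had no probe set of their own. Their shared probe set was called higher (log2 fold change 0.51, limma adjusted p = 0.00918). Genes of this class were not tested against the other classes.

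The genes outside these classes held 22 of the rises among 32 genes, with a median of 0.69, against 16.3% of all tested genes called higher. RPL30 (YGL030W), whose protein binds its own precursor transcript and blocks its splicing, read 2154, 2311 and 2016 in the wild type and 3249, 3306 and 3625 in the deletion, without overlap (log2 fold change 0.65, SE 0.13, limma adjusted p = 0.00466). RPL32 (YBL092W) read 2189, 1956 and 1677 in the wild type and 3908, 3350.1 and 4146 in the deletion (log2 fold change 0.97, SE 0.15, limma adjusted p = 0.00149). Both genes rose on every deletion array. RPL6B (1.07), RPL14A (1.02), RPL36A (0.96), RPL13B (0.94) and RPL14B (0.88) also rose on the log2 scale, each with no overlap between the strains.

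At the other end stood RPL15B (YMR121C), with 1707, 1398 and 1771 in the wild type and 948, 1328 and 1308 in the deletion. All deletion arrays were below all wild-type arrays, but the change did not pass the test (log2 fold change -0.45, 95% confidence interval -0.85 to -0.06, limma adjusted p = 0.0762). RPL22B (YFL034C-A) read 688, 646 and 736 in the wild type and 677, 608 and 549.5 in the deletion, overlapping (log2 fold change -0.18, 95% confidence interval -0.52 to 0.17, limma adjusted p = 0.411). RPL29 (YFR032C-A) read 3306, 3427 and 3486 in the wild type and 3892, 3675 and 3331 in the deletion, also overlapping. Its interval was narrow, from -0.18 to 0.36 around 0.09. For RPL31A (YDL075W), at 6465, 5434 and 7247 against 6774, 7078 and 6972, the interval ran from -0.16 to 0.42 around 0.13. RPL37B (YDR500C) read 4644, 4797 and 4094 in the wild type and 5456, 3865 and 6026 in the deletion, where replicate 2 was the lowest of the 6 arrays. Its interval ran from -0.22 to 0.54 around 0.16.

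Genes whose symbols differ only by a final A or B, called copies here, could be compared in 18 pairs, since each copy had a probe set naming it alone. Both copies rose in 8 of them, only one copy was called in 9, and neither in 1 (RPL15). A call in one copy alone does not show that the copies differ, so the ratio of A to B on each array was compared between the strains. That ratio does not depend on a factor common to an array. The fit ran over all 33 A and B pairs of the array, of which 2 were not ribosomal, and adjusted over these. The change differed between the copies in 7 of the 33 pairs (21.2%) and in 4 of the 18 large subunit pairs. The strains' ratios did not overlap for 51.5% of the 33 pairs and for 9 of the 18. An exact permutation test of a single pair cannot go below p = 0.1 with 3 arrays against 3.

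**Figure D4:**
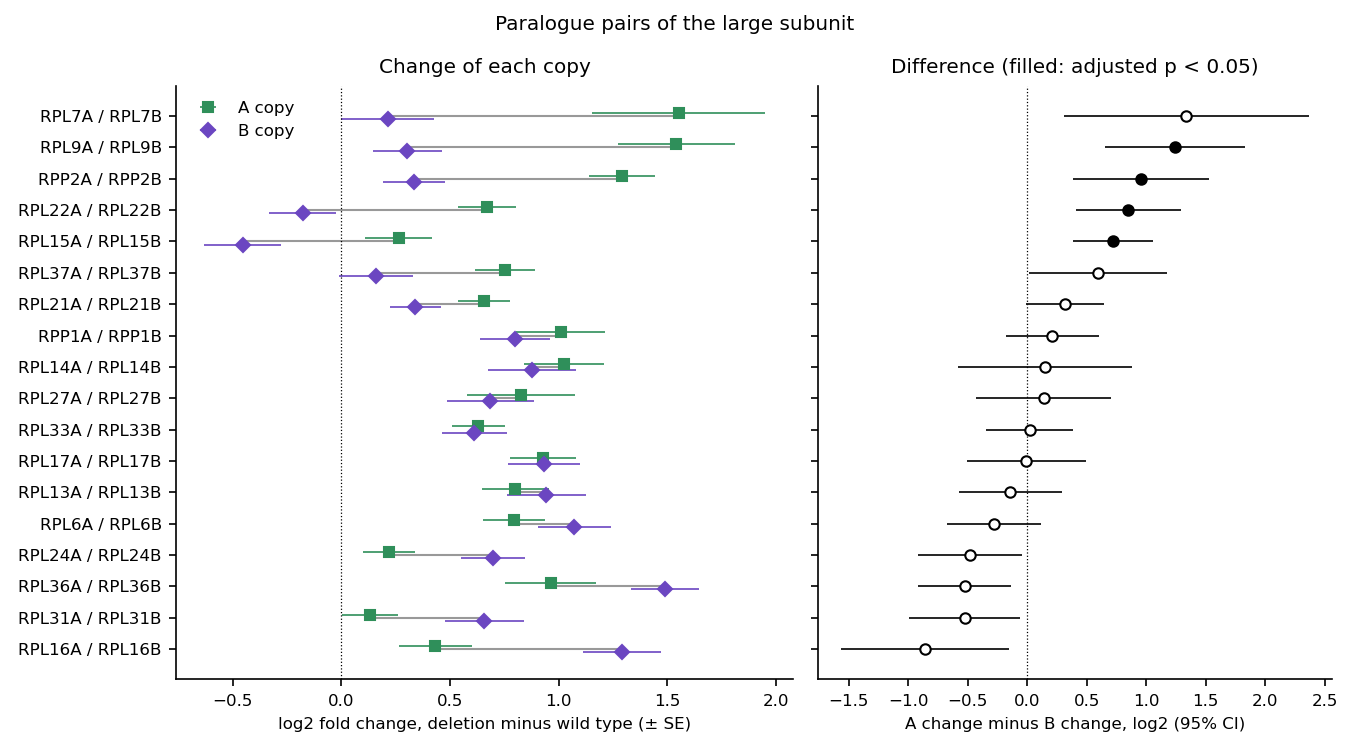
The left panel gives the log2 fold change (deletion minus wild type, ± SE, n = 3 arrays per strain) of the A copy (squares) and the B copy (diamonds) of 18 large subunit gene pairs, and the right panel the A change minus the B change with its 95% confidence interval. Filled points mark the 4 pairs with an adjusted p under 0.05, namely RPL9, RPP2, RPL22 and RPL15.

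The largest called difference was between RPL9A and RPL9B, whose A copy rose as given above while RPL9B (YNL067W) read 1637, 1433 and 1318 in the wild type and 1639.8, 2107 and 1681 in the deletion. RPL9B was not called (log2 fold change 0.30, limma adjusted p = 0.169). The log2 ratio of A to B was -1.27, -1.87 and -1.84 in the wild type and -0.71, -0.62 and 0.06 in the deletion, higher on every deletion array (difference 1.24, SE 0.26, limma adjusted p = 0.0125, exact two-sided permutation p = 0.1). Both probe sets of this pair carry a suffix, so part of each signal may come from the other copy.

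For the P2 proteins the log2 ratio of RPP2A to RPP2B was -1.40, -0.93 and -1.88 in the wild type and -0.27, -0.40 and -0.67 in the deletion. Every deletion array was higher (difference 0.96, SE 0.25, limma adjusted p = 0.0257, exact two-sided permutation p = 0.1). This call was lost in 6 of 18 other settings, without deletion replicate 1 (adjusted p = 0.0587) and without deletion replicate 2 (adjusted p = 0.0778) among them.

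RPL22A (YLR061W) rose, from 4015, 3319 and 3675 in the wild type to 5231, 5803 and 6525 in the deletion (log2 fold change 0.67, SE 0.13, limma adjusted p = 0.00497), while RPL22B had a point estimate below 0. The log2 ratio of A to B was 2.54, 2.36 and 2.32 in the wild type and 2.95, 3.25 and 3.57 in the deletion. The strains did not overlap (difference 0.85, SE 0.19, limma adjusted p = 0.0136, exact two-sided permutation p = 0.1). With the scan day as a block the call was lost (difference 0.85, adjusted p = 0.0585). Both genes have an intron, and in budding yeast the Rpl22 protein is known to hold back splicing of the RPL22B transcript.

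RPL15A (YLR029C), named with its copy because the pair was called, read 2408, 2121 and 2394 in the wild type and 2297, 2907 and 3169 in the deletion, overlapping. Neither copy of RPL15 was called on its own, yet the log2 ratio of A to B went from 0.50, 0.60 and 0.43 in the wild type to 1.28, 1.13 and 1.28 in the deletion. The deletion arrays lay well above all wild-type arrays (difference 0.72, SE 0.15, limma adjusted p = 0.0125, exact two-sided permutation p = 0.1). Neither RPL15 gene has an intron.

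Differences of similar size were not called for RPL16 and RPL7, whose SEs were 0.31 and 0.45. RPL16A (YIL133C) read 3048, 4024 and 4247 in the wild type and 5132, 4268 and 5850.2 in the deletion, and was not called (log2 fold change 0.43, limma adjusted p = 0.0731). The difference from RPL16B was -0.86 with a 95% confidence interval from -1.56 to -0.16 (limma adjusted p = 0.0569), and the ratios of the strains overlapped. Without wild-type replicate 1 it was -1.19 (adjusted p = 0.00488). RPL7B (YPL198W) read 1621, 1120.3 and 1522 in the wild type and 1620.3, 1259.9 and 2110.2 in the deletion (log2 fold change 0.21, 95% confidence interval -0.26 to 0.69). The difference of RPL7A from RPL7B was 1.34 with the dim probe set of RPL7A (adjusted p = 0.0504) and 0.53 with its brightest one (adjusted p = 0.0415, a setting chosen after seeing the data). With the dim set it was called without wild-type replicate 1, wild-type replicate 3 or deletion replicate 3, with differences of 1.21, 1.55 and 1.92.

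Several pairs changed by similar amounts, with intervals that still allow moderate differences. The difference was -0.01 for RPL17 (95% confidence interval -0.50 to 0.49), 0.02 for RPL33 (-0.34 to 0.38) and -0.14 for RPL13 (-0.58 to 0.29). The probe sets of RPL17 and RPL33 carry a suffix for both copies, and those of RPL13 do not.

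The remaining pairs lay between these. RPL36A rose by 0.96 and RPL36B by 1.49, with a difference of -0.53 (95% confidence interval -0.92 to -0.13, limma adjusted p = 0.0504) that was called without wild-type replicate 2 (-0.65, adjusted p = 0.0302). On the deposited scale and with one median it was -0.30 (adjusted p = 0.254). The probe sets of RPL36 and RPL14 carry a suffix for both copies, and those of RPL31B and RPL27A carry one too. Part of such a signal may come from the other copy. In RPL24, RPL31 and RPL37 one copy was called and the other was not. RPL24B rose by 0.70 beside 0.22 for RPL24A, RPL31B by 0.66 beside 0.13 for RPL31A, and RPL37A by 0.75 beside 0.16 for RPL37B, and the differences of -0.48, -0.53 and 0.59 had adjusted p-values of 0.0766, 0.0756 and 0.0948 (limma). RPL21A rose by 0.66 beside 0.34 for RPL21B, which just missed the threshold (adjusted p = 0.0509), and their difference of 0.32 was not called (adjusted p = 0.113). In RPL6, RPP1, RPL14 and RPL27 both copies rose, and the differences were -0.28, 0.21, 0.15 and 0.14, none of them called. RPL27A was the 1 gene called higher whose strains overlapped. The calls of RPL27A and RPL27B were lost in 8 and 6 of 19 other settings. Both were lost without wild-type replicate 1 and without deletion replicate 1, RPL27A also without wild-type replicate 3 and without deletion replicate 2, and RPL27B also without wild-type replicate 2.

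In each gene that had several probe sets of its own, all of them gave a point estimate above 0. The 3 probe sets that name RPL17B alone gave log2 fold changes of 0.93, 1.25 and 1.52, and those of RPL31B 0.66, 0.58 and 1.00. RPP1B had 2 probe sets without a suffix, which differed little (0.80 and 0.85). For RPL7B the second probe set gave 0.14 beside 0.21, and for RPL31A 0.16 beside 0.13. Of the 15 genes not called, RPL9B, RPL16A, RPL21B and RPL24A were nonetheless higher on every deletion array, RPL15B was lower on every one, and the other 10 overlapped between the strains.

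Members with an intron were counted from a list written by hand, with RPP1B added because its gene length is not a multiple of 3. Over all tested genes, the share called higher was 16.3%. Of 32 members with an intron, 25 rose, and their median log2 fold change was 0.72. Of 15 without one, 7 rose, and the median was 0.33. The ranges were -0.18 to 1.55 and -0.45 to 1.57, so both groups held genes near either end, and the difference between them was not tested. Among all 47 genes, 25 of 36 A or B copies rose (median 0.73) and 7 of 11 genes with no such letter (median 0.47). Genes read from a plain probe set rose in 21 of 34 cases (median 0.65), and those read from a suffixed one in 11 of 13 (median 0.88). The brighter and the dimmer members had the same median of 0.67, with 14 of 23 and 18 of 24 called higher. On the deposited scale their medians were 0.77 and 0.64. Over all 47 genes the Pearson correlation of mean log2 level and log2 fold change was -0.27. Whether the size of a change depends on brightness was not tested.

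Genes that serve the large subunit were counted beside it. Of 22 dedicated chaperones and assembly or export factors of its proteins, 3 rose and 1 fell (median 0.32). With 16.3% of all tested genes called higher, the called rises of this list were no more than the background. The point estimate was above 0 for 17 of the 22, against 2644 of all 5247 tested genes. All deletion arrays were above all wild-type arrays for 10 of the 22 and below them for 2, against 1261 and 1351 of all 5247. On the deposited scale none of the list was called and its median was 0.05. With one median 4 of the list were called higher and none lower, against 19.6% of all tested genes called higher. RRB1, the chaperone of Rpl3, rose by 0.67 (adjusted p = 0.0321), LSG1, a GTPase that frees the export adaptor Nmd3, by 0.57 (adjusted p = 0.0305) and RLP24, a placeholder for Rpl24, by 0.70 (adjusted p = 0.0353). TIF6, which keeps the subunits apart, fell by 0.50 on the log2 scale (adjusted p = 0.0331). Each of these 4 calls was lost in 7 to 9 of 19 other settings. RPL24A, for comparison, was not called (0.22), and RPL24B rose by 0.70.

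Of 21 tested regulators of ribosomal protein genes, none rose and 4 fell (median -0.03), beside 16.3% called higher and 16.3% called lower among all tested genes, so the share that fell was near the background. At an unadjusted p under 0.05 (limma), 0 were higher and 4 lower, against 1163 and 1189 of all 5247 tested genes. On the deposited scale and with one median 1 and 3 regulators were called lower, against 386 and 706 of all 5247. CRF1, a corepressor of these genes, fell from 70.6, 71.0 and 65.0 in the wild type to 19.3, 24.3 and 23.1 in the deletion (log2 fold change -1.64, SE 0.22, limma adjusted p = 0.00075). The strains lay far apart, and the call held in the 18 of 19 other settings that tested it. The probe set of CRF1 was dim, with deletion values not far above the floor of 8.35, so the size of its fall is less certain. SFP1, an activator, fell by 0.68 (adjusted p = 0.0203), the kinase gene YAK1 by 0.58 (adjusted p = 0.02) and TOD6, a repressor of ribosome assembly genes, by 0.78 (adjusted p = 0.0123), with calls lost in 6, 6 and 2 of 19 other settings.

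Beside the large subunit, 24 of 34 measured small subunit genes rose and 1 fell, with a median of 0.73. Of 34 mitochondrial large subunit genes 19 rose, with a median of 0.58. Over all tested genes 16.3% were called higher and 16.3% lower. On the deposited scale the small subunit and mitochondrial medians were 0.71 and 0.27, against 0.69 for the cytosolic large subunit. There 14 small subunit and 2 mitochondrial genes were called higher, against 2.29% of all tested genes. The lists were not tested against each other.

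**Figure D5:**
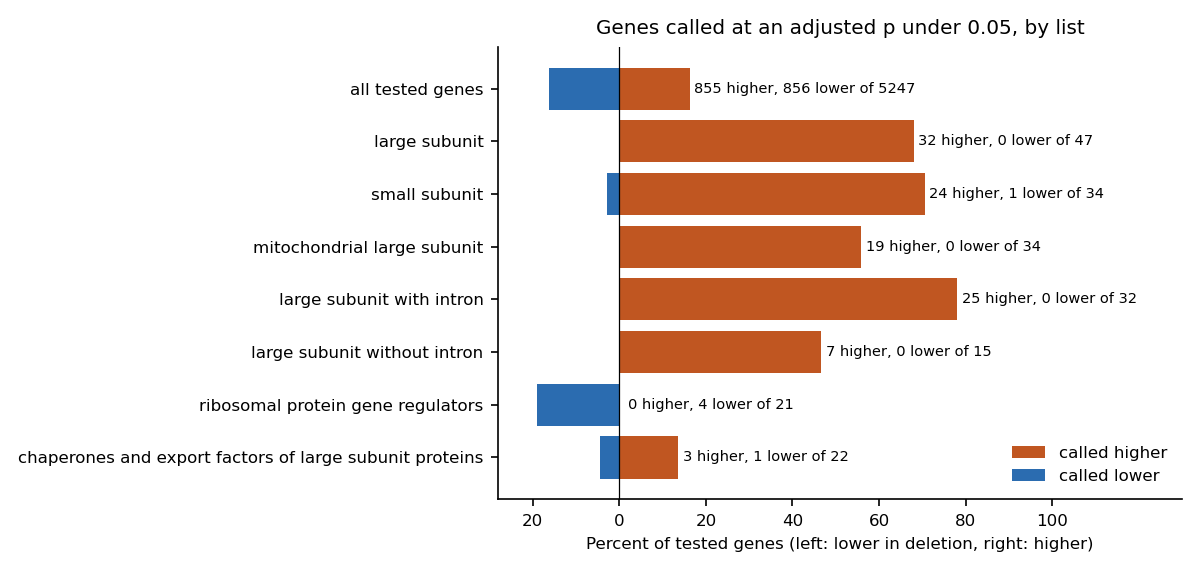
Percent of the tested genes of each list called higher (right of 0) or lower (left of 0) in the deletion strain, with the counts beside each bar. The large subunit bar stands for 32 of 47 genes higher and 0 lower, against 16.3% higher and 16.3% lower of all 5247 tested genes.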

How the data were processed

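The members and gene lists were chosen with earlier results of these data known. The deposited table holds an intensity on a linear scale for each of 9335 probe sets on each array, and how the authors summarised or scaled it is not given in the sources used. Intensities were quantile normalised, floored at the 10th percentile and log2 transformed. Left out were 60 control probe sets and, by mean level, the dimmest 25% of the remainder, and the strains were compared with limma 3.58.1 in R 4.3.3 (lmFit, eBayes with an intensity trend, Benjamini-Hochberg over all tested probe sets, n = 3 arrays per strain). Probe sets were named through the platform annotation (6504 with 1 symbol, 328 with several) and matched to the R64 gene table. A gene was read from its brightest probe set without a suffix, or else from its brightest suffixed one. Paralogue ratios were fitted with limma without a trend. Values on every array are given for the 6 largest and 6 smallest log2 fold changes, the 5 largest paralogue differences and 8 genes chosen by role, and up to 4 genes of smallest p are named from each other list. Precision is limited by the number of arrays, with a median SE of 0.16 for the members. Alternatives covered scale, floor, filter, variance model, blocks, array weights, the probe set per gene and leaving out each array. The planned search for promoter motifs was not run, as no promoter sequences were used here. The labels do not say that replicate numbers pair the arrays. Correlations of same-numbered deviations from the strain means were -0.23, -0.09 and 0.08, and those of differently numbered ones ranged from -0.13 to 0.25. With 3 arrays per strain these values cannot settle whether the arrays were paired.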

Additional observations from a re-analysis of the deposited data

How the results depend on the processing

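Of the 32 rises, 8 (RPL6B, RPP2A, RPL16B, RPL32, RPL38, RPL17B, RPL36B and RPL9A) were called in all 19 other settings, 25 were called whichever array was left out, and no member was called lower in any setting. The count of rises was 16 on the deposited scale, 9 with the fluidics station as a block and 25 to 31 when an array was left out, and it was 32 when every gene was read from its brightest probe set of any suffix. These 2 settings also lowered the probe sets called, from 2187 to 728 and 675, and the small subunit rises, from 24 to 14 and 9. With the station block the 9 rises were those 8 genes and RPL30. Scaling to one median moved the members' median from 0.67 to 1.02. With the replicate number as a block, 0 of the 18 paralogue pairs were called by limma (8 had an unadjusted p under 0.05, against 10 without the block). The cause was not tested. With that block 30 of the 32 rises were still called, against 14.5% of all tested genes called higher. With the scan day as a block 2 pairs were called, and with the brightest probe set of any suffix, chosen after seeing the data, 7. Signs changed only for values not called. RPL31A was at -0.062 with the station block, and RPL3 ranged from -0.0078 to 0.26 when an array was left out. The A minus B difference turned to 0.022 for RPL13 and -0.030 for RPL27 with the scan day block, to -0.036 for RPL14 with array weights and to 0.033 for RPL17 on the deposited scale and with one median. When an array was left out it ranged from -0.23 to 0.031 for RPL13, -0.098 to 0.46 for RPL14, -0.17 to 0.22 for RPL17, -0.085 to 0.30 for RPL27 and -0.053 to 0.13 for RPL33, and between 3 and 6 pairs were called. Signal over background does not limit the members, apart from RPL7A.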

Other observations

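Probe sets that name an A and a B copy together were left out of the counts above. They cover large subunit proteins that have no probe set of their own. They also cover RPL7, RPL9, RPL14, RPL15, RPL17 and RPL36, whose copies are already among the 47 genes. There were 38 such probe sets, for 22 A and B pairs. In the same fit 28 were called higher, 0 lower and 10 not called, with all 38 point estimates above 0 and a median log2 fold change of 0.63, while 15.2% of all tested probe sets were called higher. For RPL12A and RPL12B, the proteins at the foot of the P stalk, the 3 probe sets rose by 0.71 to 1.22. For RPL11A and RPL11B, which join Rpl5 on the 5S ribosomal RNA, they rose by 0.51 to 0.76. RPL41A and RPL41B, which encode a very short peptide of the subunit, rose by 1.11 (limma adjusted p = 0.00125), and RPL40A and RPL40B, made as fusions with ubiquitin, by 0.49 to 0.85. For RPL4A and RPL4B, whose protein lines the exit tunnel, none of 3 probe sets was called (0.14 to 0.44), nor was the 1 probe set of RPL1A and RPL1B, of the mobile L1 stalk (0.21, adjusted p = 0.202). Also of the tunnel and its rim, RPL19A and RPL19B (0.28, limma adjusted p = 0.0867) and RPL26A and RPL26B (0.30, adjusted p = 0.0636) were not called. The shared probe set of RPL35A and RPL35B rose by 0.91 (adjusted p = 0.00198).

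The shared probe set of RPL15A and RPL15B was at 0.01 (adjusted p = 0.956), the smallest of the 38, beside 0.26 for RPL15A and -0.45 for RPL15B on their own probe sets. The 3 shared sets of RPL43A and RPL43B did not agree in size, at 1.21, 0.57 and 0.24, and the last was not called.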
